A study of Mus musculus with 4 samples.

Results

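The sirtuins are the 7 mammalian genes Sirt1 to Sirt7, and their values were examined in mouse embryonic fibroblasts (MEFs) cultured with or without pigment epithelium-derived factor (PEDF), a secreted protein of the serpin family. Members were taken by gene symbol, with earlier results of these data known, and all 7 of 7 were found among the 55487 genes counted. The cells were wild-type primary MEFs from mid-gestation C57BL/6J embryos, and neither group carried a transgene or a deletion. The PEDF group was exposed for 24 h to 100 ng/mL of the protein, which had been purified from mammalian cells, and control cells were left untreated. Experiments 1 and 2 each used their own embryos and each gave 1 control and 1 PEDF library, so there were 2 libraries per group. The sample labels give passage 2, whereas the study's text gives passage 3. Experiment numbers are used below as replicate numbers.

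Sirtuins are enzymes that consume NAD+ to remove acetyl or longer acyl groups from lysine residues of proteins, and some also transfer ADP-ribose. Because each reaction uses up a molecule of NAD+, their activity follows the supply of this cofactor as well as the amount of enzyme. SIRT1, SIRT6 and SIRT7 act mainly in the nucleus, SIRT2 mainly in the cytosol, and SIRT3, SIRT4 and SIRT5 in mitochondria. In fibroblasts the family is known for its links to replicative senescence, which the study investigated, through p53, chromatin at telomeres, ribosomal RNA synthesis and the handling of reactive oxygen species. Messenger RNA was measured here, and neither protein nor enzyme activity was.

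The members share a catalytic core, and the stretch of 42 coding nucleotides that begins its NAD+-binding fold is shown for each gene to let the reader see what the members have in common. It was read from 1 protein-coding GENCODE M21 transcript of each gene and is written from 5′ to 3′ on the strand of the gene. Capitals mark the 12 bases that are identical in all 7 genes. The stretch was located by a pattern of 14 residues, so the shared bases are those that this pattern fixes, and they are not a finding.
Sirt1: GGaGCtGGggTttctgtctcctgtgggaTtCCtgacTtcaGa
Sirt2: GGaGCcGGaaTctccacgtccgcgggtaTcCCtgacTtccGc
Sirt3: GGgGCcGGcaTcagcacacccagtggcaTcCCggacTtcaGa
Sirt4: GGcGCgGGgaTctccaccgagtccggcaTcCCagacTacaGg
Sirt5: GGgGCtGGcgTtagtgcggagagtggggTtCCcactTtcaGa
Sirt6: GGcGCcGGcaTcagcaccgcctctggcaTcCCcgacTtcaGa
Sirt7: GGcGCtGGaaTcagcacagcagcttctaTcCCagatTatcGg

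Within this stretch Sirt3 and Sirt6 were the most alike, with 36 of 42 bases identical, and Sirt1 and Sirt7, like Sirt2 and Sirt5, had 18 of 42 identical. In GRCm38 coordinates the stretch lay within 1 coding exon in Sirt4, at chr5:115482896-115482937 in exon 2, and in Sirt5, at chr13:43371888-43371929 in exon 3. In the other members it crossed a splice junction. It spanned exons 8 and 9 of Sirt1 at chr10:63331865-63335644, and exons 5 and 6 of Sirt2 at chr7:28776881-28777018. In Sirt3 it spanned exons 2 and 3 at chr7:140877882-140877997, in Sirt6 exons 2 and 3 at chr10:81625898-81626530, and in Sirt7 exons 3 and 4 at chr11:120622188-120624507. Across all annotated transcripts, the longest run of bases shared by any pair of sirtuins was 23 nucleotides, between Sirt1 and Sirt5.

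The 4 libraries held between 14722848 and 18144640 counts. Library sizes were scaled by edgeR's TMM factors, and CPM denotes counts per 1000000 counts of a scaled library. Levels of different genes were compared by TPM (relative transcript abundance), which also divides by gene length. The fibroblast label was checked against 7 fibroblast markers, all of which were detected, with Col1a1 the highest at 7226 to 10587 TPM. Markers of other cells were also present, and the summed level of each such list was below that of the fibroblast list, although Acta1 of skeletal muscle, at a mean of 163 TPM, was above the fibroblast marker Pdgfra at 66.0 TPM. The summed TPM of the 7 fibroblast markers was 14429 and 17309 in control and 12982 and 14767 with PEDF (experiments 1 and 2). That of 5 skeletal muscle markers was 363 and 432 in control and 395 and 474 with PEDF. For 5 macrophage markers it was 72.3 and 56.0 in control and 76.9 and 64.6 with PEDF. The sums were 72.2 to 90.7 TPM for 5 epithelial markers and 5.92 to 6.24 TPM for 4 endothelial markers. No marker was at 0 counts over the 4 libraries. In such bulk samples, fewer cells of a type and less RNA per cell cannot be told apart.

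All 7 sirtuins were expressed, with between 58 and 984 counts per gene and library, and all passed the filter of at least 10 counts in total. Sirt2 alone took 36.0% of the sirtuin counts, and Sirt2, Sirt6 and Sirt7 together took 74.2%. By TPM, the order from high to low was Sirt2, Sirt6, Sirt7, Sirt1, Sirt4, Sirt3 and Sirt5, as shown in the plot of TPM by library. Sirt2 averaged 29.4 ± 1.83 TPM and Sirt6 26.2 ± 3.34 TPM (SD, n = 4), and their ranges over the libraries overlapped. Sirt7 averaged 16.4 ± 1.12 TPM. Sirt1 and Sirt4 were nearly level at 9.53 ± 1.14 and 9.43 ± 1.35 TPM, again with overlapping ranges, and lay close to the median of 9.19 TPM of the 19384 genes tested. Sirt3 at 3.30 ± 0.357 TPM and Sirt5 at 2.11 ± 0.513 TPM were the lowest, and the highest Sirt5 value, 2.78 TPM, stayed below the lowest Sirt3 value, 2.91 TPM. The mitochondrial members had the 3 lowest mean TPM values of the family, but Sirt4 was not resolved from Sirt1. This order did not hold under another gene length, as given next.

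**Figure D1:**
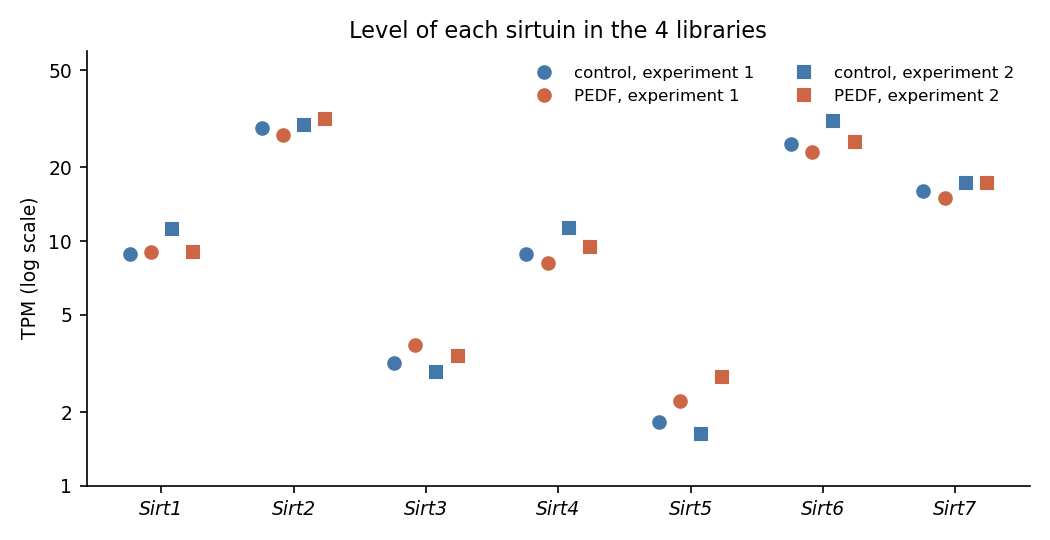
TPM of each sirtuin (log scale) in the 4 libraries, with 1 point per library, blue for control, orange for PEDF, circles for experiment 1 and squares for experiment 2. The genes span from 1.62 TPM (Sirt5, control, experiment 2) to 31.6 TPM (Sirt2, PEDF, experiment 2), and the control and PEDF points of Sirt5 and Sirt3 do not overlap.

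Part of this order depended on the length by which counts were divided. The length behind the TPM values was the union of all annotated exons, which includes retained introns. For Sirt3 this length, 5973 bases, was 3.72 times that of its longest protein-coding transcript, 1606 bases, whereas the ratio was 1.20 for Sirt1. When counts were divided by the longest protein-coding transcript, a choice made after seeing the data, the order became Sirt2, Sirt7, Sirt6, Sirt4, Sirt3, Sirt1 and Sirt5. Sirt2 stayed first at 24.7 ± 1.05 CPM per kilobase and Sirt5 last at 1.88 ± 0.454 (SD, n = 4). Sirt7 reached 17.2 ± 0.769 and was above Sirt6, at 13.6 ± 1.47, without overlap. Sirt4, Sirt3 and Sirt1, at 4.44, 4.34 and 4.04 CPM per kilobase, overlapped each other, so no order among these 3 genes was resolved.

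**Figure D2:**
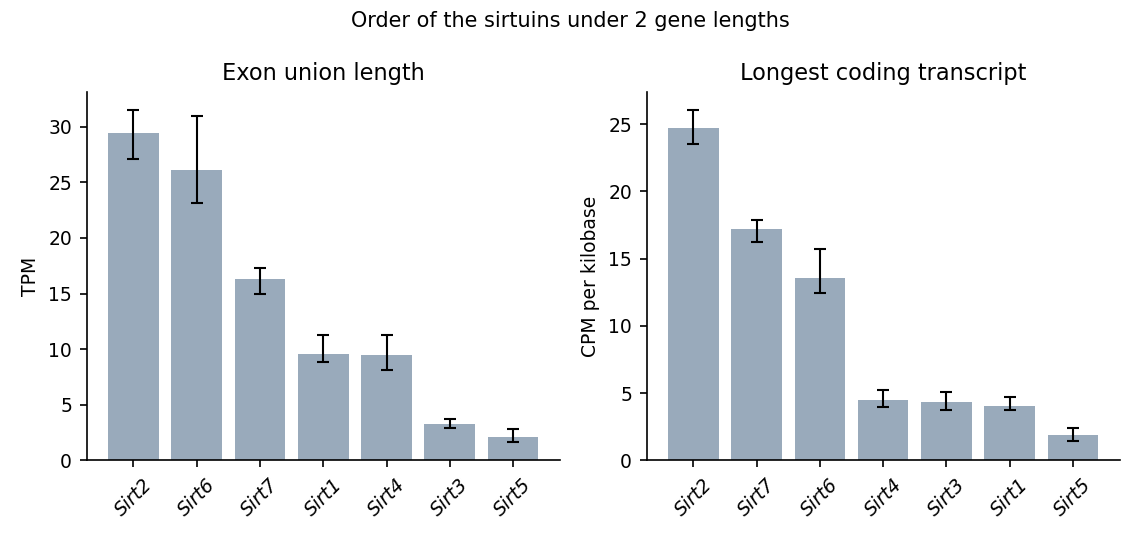
Sirtuins ordered by level, as TPM (left, exon union length) and as CPM per kilobase of the longest protein-coding transcript (right); bars give the mean of 4 libraries and error bars the lowest and highest library. Sirt2 is first and Sirt5 last in both panels, while Sirt6 and Sirt7 change places and Sirt3 moves from 3.30 TPM, well below Sirt1, to 4.34 CPM per kilobase, level with it.

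To see whether PEDF altered the expression of the family, PEDF libraries were compared with control libraries by edgeR's quasi-likelihood test over 19384 genes, with Benjamini-Hochberg adjustment and no term for the experiment. None of the 7 sirtuins had an adjusted p under 0.05, and 0.00516% of all genes tested did. Adding the experiment as a block, which compares the libraries within each experiment, gave no sirtuin call either, although 3.75% of the genes tested then passed. The p-values of that fit rest on a spread shared across genes more than on that of each gene. DESeq2 also called no sirtuin, against 0.0594% of the genes for which it set an adjusted p, and it set one for 4 of the 7. With the block added to DESeq2, no sirtuin was given an adjusted p. At an unadjusted p under 0.05 there was 1 sirtuin of 7 by edgeR, Sirt5, against 6.88% of the genes tested. With the block it was again 1 of 7, Sirt5, against 14.6% of the genes tested, and by DESeq2 0 of 7, against 1.46% of the genes it fitted. By direction, 3 sirtuins were higher and 4 lower with PEDF, with a median log2 fold change of -0.02 beside 0.0012 for all genes tested. The PEDF and control libraries did not overlap in CPM for 3 of the 7 sirtuins, Sirt3, Sirt5 and Sirt6, and for 37.3% of the genes tested. In TPM this held for 2 of the 7, Sirt3 and Sirt5, and for 35.2% of the genes tested. The summed sirtuin level was 141 CPM in control and 139 CPM in PEDF of experiment 1, and 152 and 148 CPM in experiment 2.

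Among the nuclear members, SIRT1 is the best known of the family and deacetylates p53, FOXO factors and other transcriptional regulators. Sirt1 (ENSMUSG00000020063, chr10:63319005-63381704, minus strand) had 248 counts in control and 272 with PEDF in experiment 1, and 369 and 297 in experiment 2. Values of a pair below are likewise those of experiments 1 and 2, in this order. Scaled to library size these were 16.8 and 20.7 CPM in control and 17.5 and 16.7 CPM with PEDF. The control library of experiment 2 stood above the other libraries, and the groups overlapped. The log2 fold change was -0.14 ± 0.13 (SE), with an adjusted p of 0.859 in edgeR's quasi-likelihood test, and without control replicate 2 it turned to 0.02. Its 95% interval ran from a fold of 0.747 to 1.10.

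SIRT6 is a chromatin-bound deacetylase of histones that takes part in DNA repair and the upkeep of telomeres. Sirt6 (ENSMUSG00000034748, chr10:81621785-81627797, minus strand) had 365 and 531 counts in control and 366 and 440 with PEDF. The CPM values were 24.7 and 29.8 in control and 23.5 and 24.7 with PEDF, so both PEDF libraries were lower than either control library, with the control library of experiment 1 and the PEDF library of experiment 2 almost level. In TPM these 2 libraries were in the other order, at 25.01 and 25.51, so the groups overlapped. The log2 fold change was -0.18 ± 0.11 (SE), with an unadjusted p of 0.137 and, over all genes, an adjusted p of 0.774 in edgeR. With the block the unadjusted p was 0.0723, and with the block and an offset for the length and GC content of genes 0.0215, while the adjusted p in edgeR stayed at 0.410 and 0.292. The size rested on single libraries, as the log2 fold change was -0.04 without control replicate 2 and -0.30 without control replicate 1. Sirt6 has the highest GC content of the sirtuins, 58.4% over its longest annotated transcript.

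SIRT7 resides in the nucleolus, where it is known to promote transcription of ribosomal RNA by RNA polymerase I. Sirt7 (ENSMUSG00000025138, chr11:120618372-120625240, minus strand) had 431 and 546 counts in control and 436 and 551 with PEDF. At 29.2 and 30.6 CPM in control and 28.1 and 30.9 CPM with PEDF, the control values lay between the PEDF values. The log2 fold change of -0.02 ± 0.10 (SE) had an adjusted p of 0.977 in edgeR, and it became 0.05 without PEDF replicate 1 and 0.01 without control replicate 2. Its 95% interval was a fold of 0.851 to 1.14. The exons of Sirt7 share 124 bases with Mafg on the same strand.

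SIRT2 is chiefly cytosolic and is known as a deacetylase of alpha-tubulin. Sirt2 (ENSMUSG00000015149, chr7:28766735-28788661, plus strand) was the most deeply counted sirtuin, with 767 and 927 counts in control and 775 and 984 with PEDF. The 2 control libraries were level at 52.0 CPM each, with the PEDF libraries on either side at 49.9 and 55.2 CPM. The log2 fold change was 0.02 ± 0.08 (SE), and the adjusted p 0.977 in edgeR. The interval was the narrowest of the family, from a fold of 0.894 to 1.15. The sign was not fixed, as the log2 fold change was -0.06 without PEDF replicate 2 and -0.0094 by limma on log2(TPM + 1).

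SIRT3 is the main deacetylase of mitochondrial proteins and acts on enzymes of respiration and antioxidant defence. Sirt3 (ENSMUSG00000025486, chr7:140863666-140882309, minus strand) had 99 and 107 counts in control and 127 and 125 with PEDF. These were 6.71 and 5.999 CPM in control and 8.17 and 7.02 CPM with PEDF, so both PEDF libraries were above both control libraries. The log2 fold change was 0.26 ± 0.19 (SE), with an unadjusted p of 0.190 and, over all genes, an adjusted p of 0.798 in edgeR, and the interval ran from a fold of 0.906 to 1.58. Without PEDF replicate 1 the log2 fold change was 0.15.

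The exons of Sirt3 overlap those of other genes on the opposite strand, sharing 418 bases with Ric8a and 342 with Psmd13, which encodes a subunit of the proteasome. The libraries were directional, but the strand setting of the counting is not given in the sources used here, and without strand the reads of overlapping genes cannot be told apart. Psmd13 had 1672 and 1832 counts in control and 2139 and 2061 with PEDF. Within experiment 1 the log2 ratio of PEDF to control was 0.28 for Sirt3 and 0.28 for Psmd13, and within experiment 2 it was 0.23 and 0.17. For Psmd13 the adjusted p was 0.696 in edgeR and 0.00245 with the block. Ric8a had log2 ratios of 0.06 and -0.03. The part of Psmd13 reads in the Sirt3 values was not tested.

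SIRT4 has weak deacetylase activity and is known to restrain glutamate dehydrogenase and malonyl-CoA decarboxylase. Sirt4 (ENSMUSG00000029524, chr5:115478010-115484725, minus strand) had 111 and 167 counts in control and 111 and 140 with PEDF. In CPM it was 7.52 and 9.36 in control and 7.14 and 7.86 with PEDF, and the groups overlapped. The log2 fold change was -0.17 ± 0.18 (SE), with an adjusted p of 0.874 in edgeR and an interval of a fold of 0.679 to 1.16. This log2 value was -0.0035 without control replicate 2, -0.32 without control replicate 1 and -0.11 without PEDF replicate 1.

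SIRT5 removes succinyl, malonyl and glutaryl groups from mitochondrial enzymes such as carbamoyl-phosphate synthetase. Sirt5 (ENSMUSG00000054021, chr13:43365496-43395203, plus strand) had the fewest counts of the family, 58 and 61 in control and 77 and 105 with PEDF. Scaled values were 3.93 and 3.42 CPM in control and 4.95 and 5.89 CPM with PEDF, and the groups did not overlap. The fitted level was 1.48-fold higher with PEDF (log2 fold change 0.57 ± 0.23, SE), the largest difference in the family, with a 95% interval from 1.05-fold to 2.09-fold. Before adjustment p was 0.0263, and after it 0.696 in edgeR's test over all genes, compared with 0.0102 and 0.141 once the block was added to edgeR. By DESeq2 the unadjusted p was 0.122, and no adjusted p was set. Over the edgeR and limma alternatives, the adjusted p of Sirt5 ranged from 0.141 to 0.999, and its log2 fold change ranged from 0.36 to 0.68. Of the 32-base words in the Sirt5 transcripts, 16.1% also occur on the same strand in transcripts of other genes, 1535 genes in all. This share was at most 2.15% in the other sirtuins. On the opposite strand it was 12.2% for Sirt5, 11.7% for Sirt3 and at most 2.90% in the rest, and whether counting used strand is not known. The authors kept uniquely mapped reads only, and their trimmed reads were longer than such a word. Whether Sirt5 reads were lost because they matched several places was not tested.

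**Figure D3:**
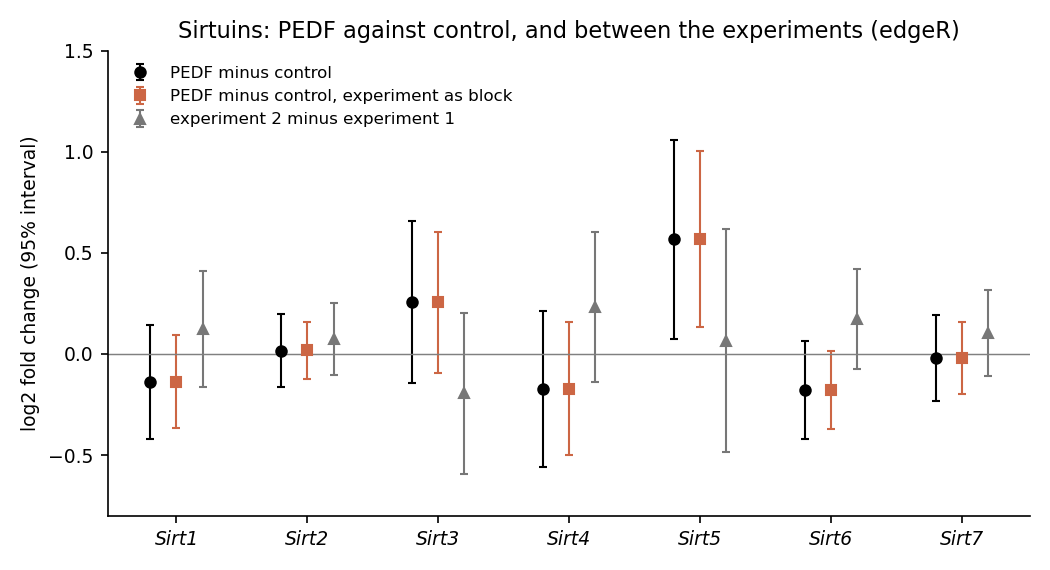
Log2 fold change of each sirtuin with its 95% interval from edgeR for PEDF minus control (black circles), the same with the experiment as a block (orange squares) and experiment 2 minus experiment 1 (grey triangles). Only for Sirt5, at 0.57, do the intervals of the PEDF difference lie wholly above 0, and no sirtuin passed after adjustment over all genes.

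Since each experiment had its own MEF preparation, the ratio of PEDF to control was also taken within each experiment, where it compares a single library with another and has no replicate check. The 95% intervals given here cover counting error only, since there is no replicate within an experiment. The study's methods name no removal of PCR copies, so the intervals may be too narrow even for that. Sirt3 and Sirt5 were higher with PEDF in both experiments, Sirt4 and Sirt6 were lower in both, and Sirt1, Sirt2 and Sirt7 moved in opposite directions. Thus 4 of 7 sirtuins had the same sign in both experiments, as did 59.1% of the 18843 tested genes with a count in every library. The interval left out 0 for 0 of 7 sirtuins in experiment 1, against 20.1% of the genes tested, and for 3 of 7 in experiment 2, against 25.5%. Sirt5 had a log2 ratio of 0.79 there (95% interval 0.32 to 1.26), compared with 0.33 (-0.18 to 0.85) in experiment 1. Sirt1 had -0.31 (-0.54 to -0.09) in experiment 2 and 0.06 (-0.20 to 0.31) in experiment 1. Sirt6 had -0.27 (-0.46 to -0.08) in experiment 2 and -0.07 (-0.28 to 0.14) in experiment 1. For each of these genes the intervals of the 2 experiments overlapped, and the difference between the experiments was not tested.

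**Figure D4:**
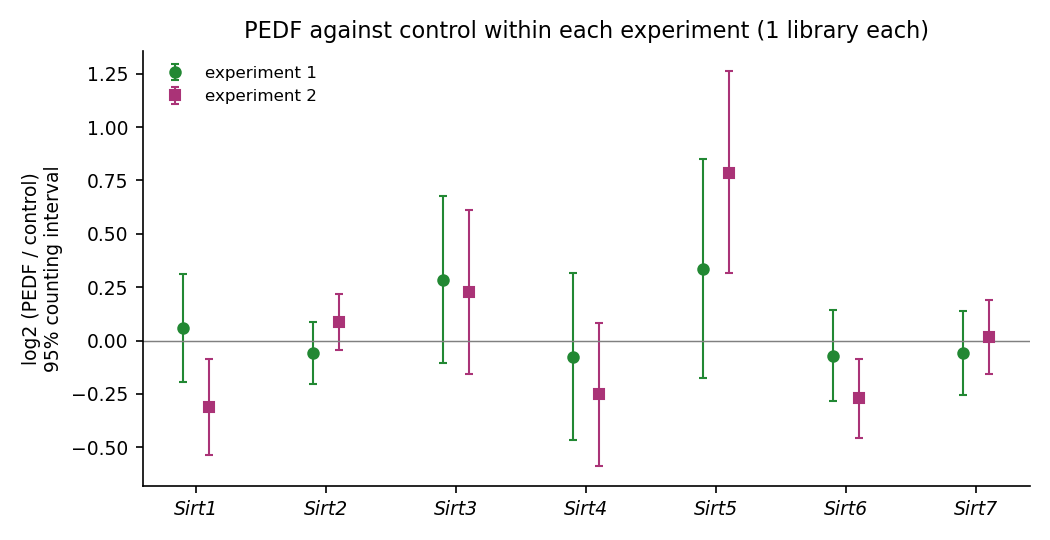
Log2 ratio of PEDF to control for each sirtuin within experiment 1 (green circles) and experiment 2 (purple squares), each from 1 library of either kind, with bars for the 95% counting interval. Sirt5 rises furthest from 0, at 0.33 and 0.79, and Sirt1 lies on opposite sides of 0 at 0.06 and -0.31.

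To set the PEDF difference against that between the experiments, experiment 2 was compared with experiment 1 in the same edgeR fit without the treatment. The embryos and anything else that differed between the experiments, such as sequencing depth, cannot be told apart. No sirtuin had an adjusted p under 0.05, against 0.0567% of the genes tested, and none had an unadjusted p under 0.05, against 7.67%. Sirt4 had a log2 fold change of 0.23 ± 0.18 (SE) and Sirt3 one of -0.19 ± 0.19, with an adjusted p of 0.798 and 0.850 in edgeR. With 1 library left out in turn, the values ranged from 0.10 (without control replicate 2) to 0.35 (without PEDF replicate 2) for Sirt4, and from -0.33 (without control replicate 1) to -0.04 (without PEDF replicate 1) for Sirt3. Sirt6 was 0.17 ± 0.12 higher in experiment 2 on the log2 scale, close in size to its PEDF difference, but 0.03 higher without control replicate 2 and 0.30 higher without PEDF replicate 2. The PEDF difference exceeded the difference between experiments in size for 4 of the 7 sirtuins, Sirt1, Sirt3, Sirt5 and Sirt6, and for 50.04% of the genes tested. For Sirt5 the experiments differed by 0.07 ± 0.26, a value that turned to -0.38 without PEDF replicate 2 and to -0.09 without control replicate 1. The Sirt1 difference of 0.12 ± 0.14 between experiments turned to -0.04 without control replicate 2.

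For each of the 6 sirtuins with at least 400 counts in total, the gene with the most similar course over the 4 libraries was sought among 11410 genes of at least 400 counts. Likeness was measured as the root mean square difference of centred log2 CPM. Sirt1 was closest to Ptk2b (0.012), Sirt2 to Gtpbp6 (0.0054), Sirt3 to Necap2 (0.010), Sirt4 to Nhlrc3 (0.0066), Sirt6 to Peak1 (0.0050) and Sirt7 to Xpr1 (0.0047). With only 4 libraries such matches were common. For Sirt7 there were 1334 genes within a difference of 0.05, and for Sirt1 there were 154.

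The genes that handle NAD+ were examined next. A list of 14 genes held enzymes of NAD+ synthesis together with NAD+ kinases and transporters. Of these 12 were tested, and none was called by edgeR, against 0.00516% of all genes without the block and 3.75% with it. Naprt, which starts NAD+ synthesis from nicotinic acid, had 9.69 and 7.41 TPM in control and 11.2 and 10.3 TPM with PEDF, and its adjusted p was 0.741 in edgeR and 0.255 with the block. Nmrk1, the kinase for nicotinamide riboside, had 3.57 and 4.97 TPM in control and 3.16 and 4.16 TPM with PEDF. Nadk, which converts NAD+ to NADP+, was the highest of the list at a mean of 107 TPM. The list's median log2 fold change was 0.04, beside 0.0012 for all genes tested and -0.02 for the sirtuins. With the block and the correction for length and GC content these medians were -0.02, -0.03 and -0.01. Among 10 other genes, 9 for enzymes that consume NAD+ and Nnmt, which methylates nicotinamide, none was called in either fit, against the same shares of all genes. They included Parp1, the main poly(ADP-ribose) polymerase, at a mean of 62.3 TPM, which is more than any sirtuin. Parp3 and the tankyrase gene Tnks had log2 fold changes of -0.14 and -0.14, with adjusted p of 0.227 and 0.184 in edgeR with the block. With the correction added, they were -0.18 for Parp3 and -0.04 for Tnks, and the adjusted p was 0.080 and 0.864 in edgeR.

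Of 10 genes known as regulators of SIRT1, none was called in either fit, against 0.00516% and 3.75% of all genes, and their median log2 fold change was -0.0088. Ctbp1, a corepressor that acts on the Sirt1 promoter, had the highest level, 159 TPM, and a log2 fold change of 0.09. Senp1, which removes SUMO from SIRT1, had -0.14, or -0.06 with the block and the correction.

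Lists of genes for known substrates or partners of sirtuins and of the classical histone deacetylases held a few calls, and these appeared only when the experiment was fitted as a block in edgeR. DESeq2 with the block called none of these genes, but it set an adjusted p for 1310 genes only, among them Hdac1 at 0.236 and not Polr1a, Mlycd or Hdac10. Among 19 nuclear and cytosolic substrates or partners, 10 were higher and 9 lower with PEDF, or 8 and 11 with the block and the correction. None passed without the block, and 1 fell with it. This was Polr1a, the largest subunit of RNA polymerase I and a partner of SIRT7, with 19.7 and 23.2 TPM in control and 16.1 and 20.2 TPM with PEDF. Its log2 fold change was -0.22 ± 0.06 (SE), with an adjusted p of 0.012 in edgeR with the block, 0.705 without it, and 0.252 with the block and the correction for length and GC content, where the log2 fold change was -0.14. Among 20 mitochondrial substrates or partners, 14 were higher and 6 lower, or 10 and 10 with the block and the correction. None passed without the block, and 1 rose with it. This was Mlycd, malonyl-CoA decarboxylase and a substrate of SIRT4, at 10.7 and 9.35 TPM in control and 13.6 and 14.3 TPM with PEDF. Its log2 fold change was 0.51 ± 0.14 (SE), and the adjusted p in edgeR was 0.012 with the block, 0.669 without it and 0.041 with the block and the correction. The median log2 fold change was 0.02 for the nuclear and cytosolic list and 0.08 for the mitochondrial list, and with the block and the correction -0.0068 and 0.0044, beside -0.03 for all genes tested.

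The 11 classical histone deacetylases, which use zinc in place of NAD+, showed 1 rise and 1 fall with the block and no call without it. Hdac1 had 116 and 118 TPM in control and 125 and 136 TPM with PEDF, and Hdac10 had 15.2 and 16.6 TPM in control and 10.7 and 12.5 TPM with PEDF. With the block, the log2 fold changes were 0.18 ± 0.05 and -0.43 ± 0.12 (SE), and the adjusted p was 0.017 and 0.016 in edgeR. With the correction for length and GC content added, the log2 fold change was 0.13 for Hdac1 and -0.47 for Hdac10, and the adjusted p in edgeR 0.171 and 0.011. The counts of 1 or 2 calls in a list stand beside 3.75% of all genes tested, or 2.16% with the correction, and nothing is read from them about the lists. With the same block, 2 of the 5 skeletal muscle markers rose, Acta1 and Des, and 3 of the 7 fibroblast markers fell, Col1a1, Col1a2 and Pdgfrb. Of the other fibroblast markers, Thy1 and Vim had positive log2 fold changes of 0.12 and 0.01, and neither passed. None of these 5 markers passed in edgeR without the block. With the correction added, the log2 fold change of Acta1 went from 0.19 to 0.10, that of Des from 0.19 to 0.16 and that of Col1a2 from -0.12 to -0.02. The adjusted p in edgeR was then 0.492, 0.0764 and 0.896, while Col1a1 and Pdgfrb still passed. By DESeq2 with the block, the adjusted p was 0.0913 for Col1a1, 0.0912 for Col1a2 and 0.0141 for Pdgfrb. It set none for Acta1 and Des. The part of these cell type markers in the values of the sirtuins and of the genes around them was not tested.

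**Figure D5:**
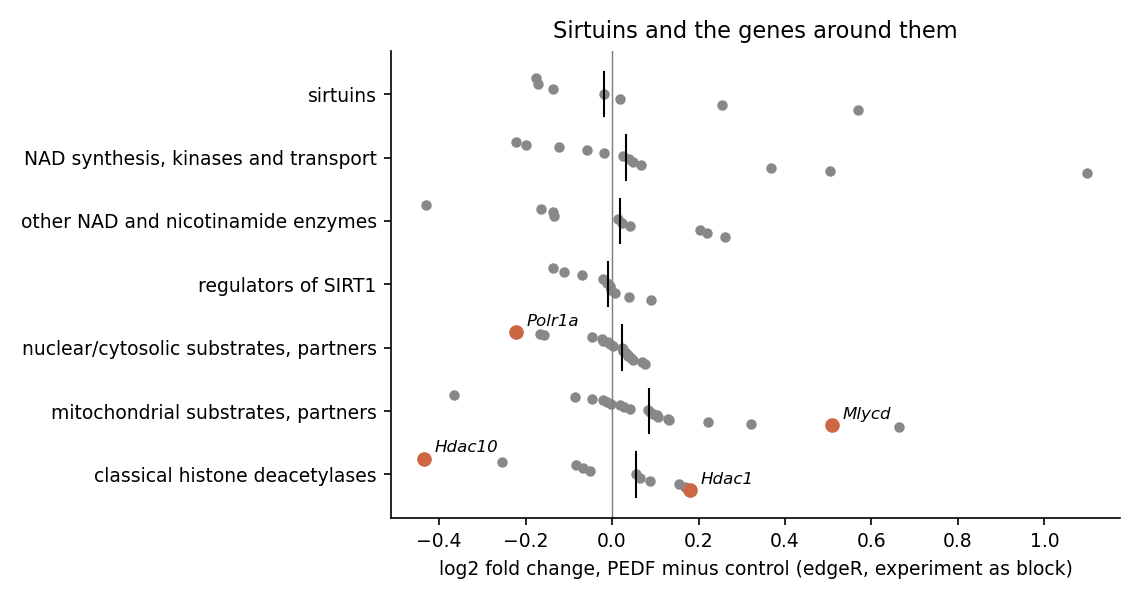
Log2 fold change of PEDF minus control, from edgeR with the experiment as a block, for each tested gene of the sirtuin list and 6 lists of related genes; each point is a gene, black bars are list medians and orange points passed an adjusted p of 0.05. The 7 sirtuins, at -0.18 to 0.57, hold no orange point, and Polr1a, Mlycd, Hdac1 and Hdac10 are the 4 that passed.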

How the data were processed

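Polyadenylated RNA of 2 control and 2 PEDF MEF cultures was sequenced from directional libraries. The authors trimmed the paired reads with Trimmomatic 0.38, aligned them with HISAT2 2.1.0 to mm10 and deposited counts of uniquely mapped reads per gene from featureCounts 1.6.3, as raw values. A second deposited table holds TPM, with a total of 1000000 per library. How TPM was derived, which annotation was used and whether counting used strand are not given in the sources used here. For 98.4% of 26133 genes the length implied by TPM equalled the GENCODE M21 exon union within 0.1%, and sequences were taken from GENCODE M21 (GRCm38).

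Counts were tested in R 4.3.3 with edgeR 4.0.16 (TMM factors, robust quasi-likelihood test) over genes with at least 10 counts in total, without a covariate and with Benjamini-Hochberg adjustment. Each standard error came from the F statistic and its log2 fold change, and 95% intervals from these and the degrees of freedom of the test. Within-experiment intervals were exact binomial intervals of the count ratio. P-values rest on 2 libraries per group and on a spread that is partly shared across genes. With the block in edgeR, the intervals of the sirtuins had the width of a normal distribution. Those p-values therefore rest on the shared spread and hardly on that of each gene.

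Experiment numbers pair the libraries, since the labels give each experiment its own embryos. Across 10703 genes whose mean log2 CPM exceeded 3, the differences between experiments in control and in PEDF libraries correlated across genes (r = 0.423). A replicate block was therefore fitted as an alternative, also with an offset from splines of 5 degrees of freedom on gene length and GC content. Further alternatives were DESeq2 1.42.0 with and without the block, RLE factors, no filter (at least 1 count), filterByExpr, limma 3.58.1 on log2(TPM + 1) or log2(TPM + 0.1), a mean TPM of at least 1, and leaving out each library. The tests were checked on simulated data.

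Named genes were all sirtuins, the called members of each related list or, where none was called, the 2 with the smallest p in the block fit and the one with the highest TPM, and the gene closest in course to each sirtuin. Acta1, Des, Col1a1, Col1a2 and Pdgfrb are the called markers, Pdgfra, Thy1, Vim and Nnmt are further list members, and Psmd13, Ric8a and Mafg overlap a sirtuin. They were named after their values were seen. The members and all lists were chosen with earlier results of these data known.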

Additional observations from a re-analysis of the deposited data

How the results depend on the processing

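No sirtuin passed an adjusted p of 0.05 under any alternative run, in edgeR, DESeq2 or limma, for PEDF against control or for experiment 2 against experiment 1. For PEDF against control, DESeq2 set no adjusted p for Sirt3, Sirt4 and Sirt5, nor for any sirtuin with the block. The replicate block gave 0 sirtuin calls, as did the fit without it. Of the PEDF fold changes, 91 of 98 values under alternatives kept their direction, and of those between experiments 60 of 63. By limma, Sirt2 turned to -0.0094 on log2(TPM + 1), also with a mean TPM of at least 1, and to -0.0098 on log2(TPM + 0.1). Leaving out 1 library at a time, the PEDF log2 fold change ranged from -0.278 to 0.0217 for Sirt1, -0.0589 to 0.0871 for Sirt2, 0.146 to 0.367 for Sirt3, -0.319 to -0.0035 for Sirt4, 0.435 to 0.684 for Sirt5, -0.303 to -0.0365 for Sirt6 and -0.0924 to 0.0468 for Sirt7, and the difference between experiments from -0.0416 to 0.267 for Sirt1, -0.382 to 0.405 for Sirt5 and 0.033 to 0.299 for Sirt6. The paired fit with the replicate block called 1 gene of the nuclear and cytosolic list, 1 of the mitochondrial list and 2 histone deacetylases in place of 0, and with the length and GC correction 0, 1 and 1, beside 2.16% of all genes. With the block in DESeq2, which set an adjusted p for 1310 genes, the counts were 0, 0 and 0. All 28 within-experiment ratios under RLE factors or TPM lay inside their counting intervals. Both only rescale the same counts, so this outcome was nearly fixed in advance and is no independent check. Per kilobase of the longest protein-coding transcript, an alternative chosen after seeing the data, the ranks became 6 for Sirt1, 5 for Sirt3, 4 for Sirt4, 3 for Sirt6 and 2 for Sirt7. Causes were not tested. Sirt3 and Sirt5 had the fewest counts summed over the libraries, 458 and 301, and 2 libraries per group limit every comparison.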
